A study of Mus musculus with 22 samples.

Results

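Dendritic cells take up antigen, carry it to lymph nodes and present it to T cells, and they fall into several lineages. Conventional type 1 dendritic cells (cDC1) depend on the transcription factor Batf3 and present material from dying cells to CD8 T cells. Conventional type 2 (cDC2) and monocyte-derived cells mainly prime CD4 T cells, plasmacytoid dendritic cells (pDC) are known for type I interferon, and Langerhans cells live in the epidermis. Here 10 genes that mark or build these lineages were followed among the 46882 genes of the table: Xcr1, Clec9a and Batf3 for cDC1, Flt3 and Zbtb46 for broader sets, Cd209a and Clec10a for cDC2 or monocyte-derived cells, Siglech for pDC, Cd207 for Langerhans cells and Fscn1 for mature cells. They were taken by name, with no threshold on their values, but with earlier results of these data known.

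The RNA came from subcutaneous tumors of MC38, a mouse colon adenocarcinoma line of C57BL/6 origin, from the cultured MC38 cells and from skin. Wild-type (WT) C57BL/6N hosts gave 3 tumors at day 23 and 3 at day 46, and hosts of the strain B6.129S7-Rag1tm1Mom/J, labelled RAG1-/- and known to lack mature T and B cells, gave 3 at day 13 and 3 at day 23. Skin (2 libraries) was labelled C57BL/6N wild type and day 23, MC38 (2 libraries) day 0, and all mice were 8 to 12 weeks old. The labels do not say whether the MC38 libraries were separate cultures, and p-values measure the spread between these samples. Tumor RNA mixes cancer, stromal and immune cells, so fewer cells of a type and less RNA per cell cannot be told apart.

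The 16 libraries held 5589151 to 26134241 reads on genes, and 3 reads, the upper limit that a count of 0 allows in a library, stood at 1.33 to 6.38 normalized counts. These limits, and the intervals on read ratios below, cover counting error only. Rag1 was read in all 6 tumors labelled RAG1-/-, at 1.07 to 11.4 normalized counts, and in 1 of 6 WT tumors, at 0.628. The Rag1tm1Mom allele keeps the 3′ part of the gene and the libraries read 3′ ends, so these reads do not check the label. Cd3e, a chain of the T cell receptor complex, was at 0 in all 6 tumors labelled RAG1-/- and at 3.91 to 23.2 in the WT tumors. Leukocyte RNA was abundant in every tumor, with Ptprc (CD45) at 517 to 916 normalized counts against 0 and 0.978 in MC38 cells and 418 and 1117 in skin.

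To ask whether hosts with and without mature T and B cells differed in cDC1 RNA, the cDC1 members were compared between WT tumors and tumors labelled RAG1-/-. Xcr1, the receptor through which cDC1 sense the chemokine XCL1, was detected in every WT tumor and in no tumor labelled RAG1-/-. Clec9a, the receptor by which cDC1 recognize the actin skeleton of dead cells, was detected in 4 of 6 WT tumors, in 1 of them with 1 read, and, also with 1 read, in 1 of 6 tumors labelled RAG1-/-. Batf3, the transcription factor of the lineage, did not follow them. The promoters of the 3 genes are printed to show how unlike these cDC1 genes are at their starts, with CG dinucleotides in capitals (RefSeq, GRCm38.p6, 250 bases before to 50 after the start, 5′ to 3′ on the gene's strand). The windows are chr9:123861980-123862279 on the minus strand for Xcr1, chr6:129408612-129408911 on the plus strand for Clec9a and chr1:191098164-191098463 on the plus strand for Batf3.
Xcr1: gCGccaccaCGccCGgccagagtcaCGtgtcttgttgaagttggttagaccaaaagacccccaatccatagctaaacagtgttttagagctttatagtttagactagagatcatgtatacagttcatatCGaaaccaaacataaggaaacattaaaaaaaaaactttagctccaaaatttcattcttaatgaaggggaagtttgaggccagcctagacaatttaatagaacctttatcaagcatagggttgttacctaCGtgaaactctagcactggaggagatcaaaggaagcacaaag
Clec9a: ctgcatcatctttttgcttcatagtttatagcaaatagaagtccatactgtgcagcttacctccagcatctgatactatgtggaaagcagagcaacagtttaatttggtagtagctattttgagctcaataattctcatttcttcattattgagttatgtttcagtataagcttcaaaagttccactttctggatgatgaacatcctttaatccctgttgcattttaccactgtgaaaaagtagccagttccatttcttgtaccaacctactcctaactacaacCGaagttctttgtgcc
Batf3: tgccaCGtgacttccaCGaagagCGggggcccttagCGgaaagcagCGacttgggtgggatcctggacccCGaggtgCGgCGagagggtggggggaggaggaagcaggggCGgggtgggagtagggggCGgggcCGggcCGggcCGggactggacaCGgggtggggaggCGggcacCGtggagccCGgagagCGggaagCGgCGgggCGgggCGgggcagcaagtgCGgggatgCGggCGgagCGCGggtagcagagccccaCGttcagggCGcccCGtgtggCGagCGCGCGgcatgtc
The Xcr1 window held 6 CG dinucleotides, that of Clec9a 1 and that of Batf3 34, against a median of 7 over 32851 promoters of 27025 genes.

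Xcr1 (chr9:123852315-123862029, GRCm38, protein coding) stood at 19.9, 5.11 and 3.17 normalized counts in the WT tumors of day 23 and at 3.91, 14.8 and 11.9 in those of day 46. All 3 tumors labelled RAG1-/- of day 13 and all 3 of day 23 were at 0. The groups did not overlap, with 6 of 6 WT tumors above every tumor labelled RAG1-/-, as were 0.399% of the 27827 genes with a read in a tumor. The WT mean was 9.80 ± 6.81 normalized counts (SD, n = 6), the log2 difference was 3.17, and the two-sided exact permutation p was 0.00217, below which 6 against 6 cannot go. Over the groups, 80 reads against 0 made Xcr1 at least 23.4-fold higher in WT tumors, with 3 reads over the 6 tumors labelled RAG1-/- as the floor. Of the WT values, 3 (3.17, 3.91 and 5.11) lay within the range of the single-library floors, 1.33 to 6.38.

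With a mean of 4.90 over the 12 tumors, Xcr1 lay just under the filter of 5 normalized counts and was not among the 14746 genes of the limma test. In the fit with no filter it passed, with an SE of 0.49 and an adjusted p of 0.0113 (limma, Benjamini-Hochberg), and the same unfiltered fit called 0.241% of genes higher. On the whole reads recovered from the normalized counts and with no filter, a choice made after seeing the data, its adjusted p was 1.60e-06 in edgeR and 0.000303 in DESeq2. Leaving out each tumor in turn with no filter gave adjusted p-values of 0.00748 to 0.0472. With the filter, Xcr1 was tested in 7 of these fits, and leaving out replicate 3 of day 13 labelled RAG1-/- took it to 0.0518.

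At the matched day 23 the Xcr1 difference was 3.02 on the log2 scale, 3 of 3 WT tumors lay above the 3 labelled RAG1-/-, and 35 reads against 0 made it at least 12.9-fold higher. The exact p was 0.1, below which 3 against 3 cannot go, the adjusted p was 0.146 in the unfiltered limma fit, and 5.52% of genes with a read were separated in this direction at that day. Between the WT days Xcr1 differed by 0.30, well inside its SE of 0.69. The other WT and RAG1-/- days differ between the genotypes, so for the pooled contrast time and host cannot be told apart beyond day 23.

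Clec9a (chr6:129408862-129424763, GRCm38) read 22.9, 9.38 and 0 normalized counts in WT tumors of day 23 and 0, 6.71 and 0.628 in those of day 46. Tumors labelled RAG1-/- read 0, 0 and 0 at day 13 and 0, 0 and 0.442 at day 23. So 3 of 6 WT tumors held 10 or more reads, 2 held 0, and replicate 3 of day 46 held 1 read, as did replicate 3 of day 23 labelled RAG1-/-, so that the order of 0.628 and 0.442 reflects depth alone. The reads were 53 against 1, a ratio of 46.5 (95% interval 8.00 to 1873), with 31 of the 53 in replicate 1 of WT day 23, the library that was also highest for Xcr1. The log2 difference was 1.85 with an exact permutation p = 0.0606, Clec9a was below the filter, and with no filter the adjusted p was 0.427 in limma, 0.126 in DESeq2 and 0.00306 in edgeR. The call therefore depended on the tool. Of its exonic bases, 5.59% are shared with Clec1b on the same strand, and such reads are uncertain.

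Batf3 (chr1:191097847-191108945, GRCm38) stood at 55.3, 34.1 and 41.2 normalized counts in WT day 23, 40.1, 29.5 and 69.1 in WT day 46, 44.9, 46.7 and 73.4 in day 13 labelled RAG1-/-, and 22.3, 38.3 and 39.3 in day 23 labelled RAG1-/-. The groups overlapped throughout, and the difference was 0.05 on the log2 scale (SE 0.28, limma adjusted p = 0.967). MC38 cells held 34.2 and 40.1 and skin 30.8 and 34.4, so Batf3 RNA was at a tumor-like level in the cancer line itself, and its part from cancer and from dendritic cells cannot be told apart in the tumors. Between day 13 and day 23 of the tumors labelled RAG1-/- it differed by -0.71 (SE 0.40, adjusted p = 0.506), with 3 of 3 day 23 tumors below those of day 13, a separation 9.92% of tested genes showed.

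**Figure D1:**
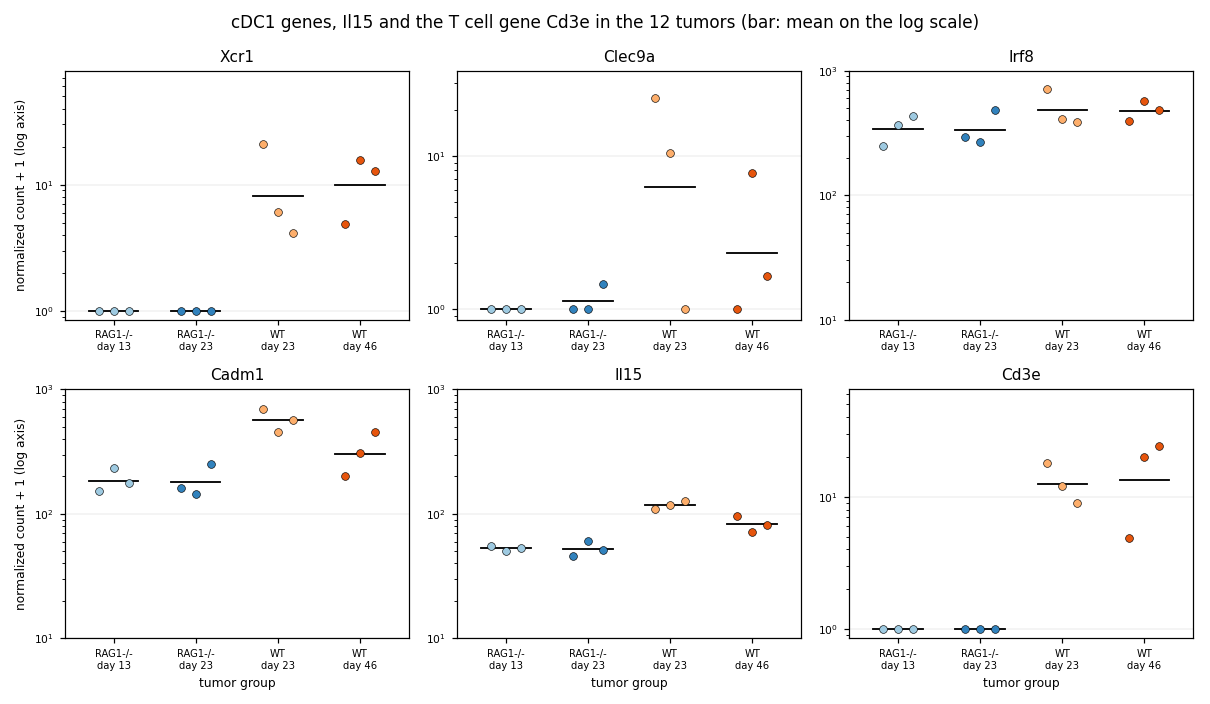
Normalized count + 1 on a log axis in each of the 12 tumors, by group, for Xcr1, Clec9a, the cDC1 factor Irf8 (picked after its values were seen), Cadm1, Il15 and Cd3e. Points are tumors and bars the mean on the log scale, and Xcr1 and Cd3e sit at 0 counts (1 on the axis) in all 6 tumors labelled RAG1-/- and above it in all 6 WT tumors.

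Other cDC1 genes gave a smaller contrast. Of 11 further genes of the cDC1 program, 9 were tested and 1 passed, Cadm1, an adhesion molecule of cDC1, beside 0.712% of all genes tested in either direction. Cadm1 read 699, 453 and 572 normalized counts in WT day 23 and 200, 308 and 455 in WT day 46, against 152, 235 and 176 and then 160, 145 and 251 in tumors labelled RAG1-/- of day 13 and day 23. It rose by 1.18 on the log2 scale (SE 0.21, limma adjusted p = 0.0124), with 5 of 6 WT tumors above every tumor labelled RAG1-/-, and at day 23 alone by 1.65 (SE 0.30, adjusted p = 0.0303). Skin held Cadm1 at 936 and 937 normalized counts and MC38 cells at 41.9 and 43.0. Cadm1 was thus read at 145 to 251 in tumors with no read of Xcr1. The most abundant others did not pass: Rab7b differed by 0.31, Id2, a factor needed for cDC1, by 0.54 and Nfil3, another such factor, by 0.45 (adjusted p = 0.335, 0.279 and 0.380). MC38 cells alone held these 3 at a tumor-like level, with means of 567.6, 571.4 and 372.0 normalized counts. The means in tumors labelled RAG1-/- were 543.9, 435.7 and 406.0. As for Batf3, their parts from cancer and from dendritic cells cannot be told apart in the tumors. The median log2 difference of the 9, these 3 among them, was 0.45, against 0.01 over all genes tested. Lists of other cells had medians of 0.62 (keratinocytes), 0.36 (macrophages and monocytes), 0.25 (fibroblasts) and 0.22 (cDC2 and monocyte-derived) in this contrast. The medians of endothelium and natural killer cells were -0.13 and -0.03.

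Genes of other cells moved in the same contrast. Of 5 T cell genes tested 4 were higher in WT tumors, and Cd3e stood at 13.7 normalized counts on average against 0 (log2 3.69, SE 0.56, adjusted p = 0.00543). The summed level of the 6 T cell genes was 17.6 to 209 in WT tumors and 1.11 to 19.1 in tumors labelled RAG1-/-, where 3 of the 6 were at 0 throughout. Macrophage and monocyte genes (0 of 13 passed) summed to 22503 to 34124 against 16718 to 28349, and the 3 leukocyte genes (0 of 3) to 2719 to 4351 against 2062 to 3789. The part of these cells in the Xcr1 result was not tested. Krt5, a keratinocyte keratin at 48702 and 45959 in skin, was at 1.48 in the WT tumor with the most Xcr1 and at 136 in replicate 2 of WT day 23. Without that replicate the unfiltered Xcr1 difference was 3.27 (limma adjusted p = 0.0147). Col1a1, a collagen gene of fibroblasts, stood at 156079 and 123916 in skin. Among the tumors it was highest, at 11095, in replicate 2 of WT day 46, where Xcr1 was 14.8. It was at 2451 in the WT tumor with the most Xcr1. The part of skin RNA in the Xcr1 level was not tested.

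In skin both cDC1 receptors were present, Xcr1 at 42.9 and 52.3 normalized counts and Clec9a at 5.36 and 12.7. Xcr1 fell by 2.42 on the log2 scale from skin to WT tumors, with 6 of 6 tumors below both skin libraries, as were 35% of tested genes. It came over the filter of this fit only through skin, and with no filter its adjusted p was 0.00567 in limma, while DESeq2 with the filter gave 0.0596. The spread in this fit also drew on MC38 cells and tumors labelled RAG1-/-, all at 0 for Xcr1. With only WT tumors and skin in the limma fit its adjusted p was 0.0147. Clec9a overlapped between skin and WT tumors, with a read ratio of skin to tumor of 1.25 (95% interval 0.642 to 2.29) and an unfiltered adjusted p of 0.323. MC38 cells gave 0 reads of either gene.

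**Figure D2:**
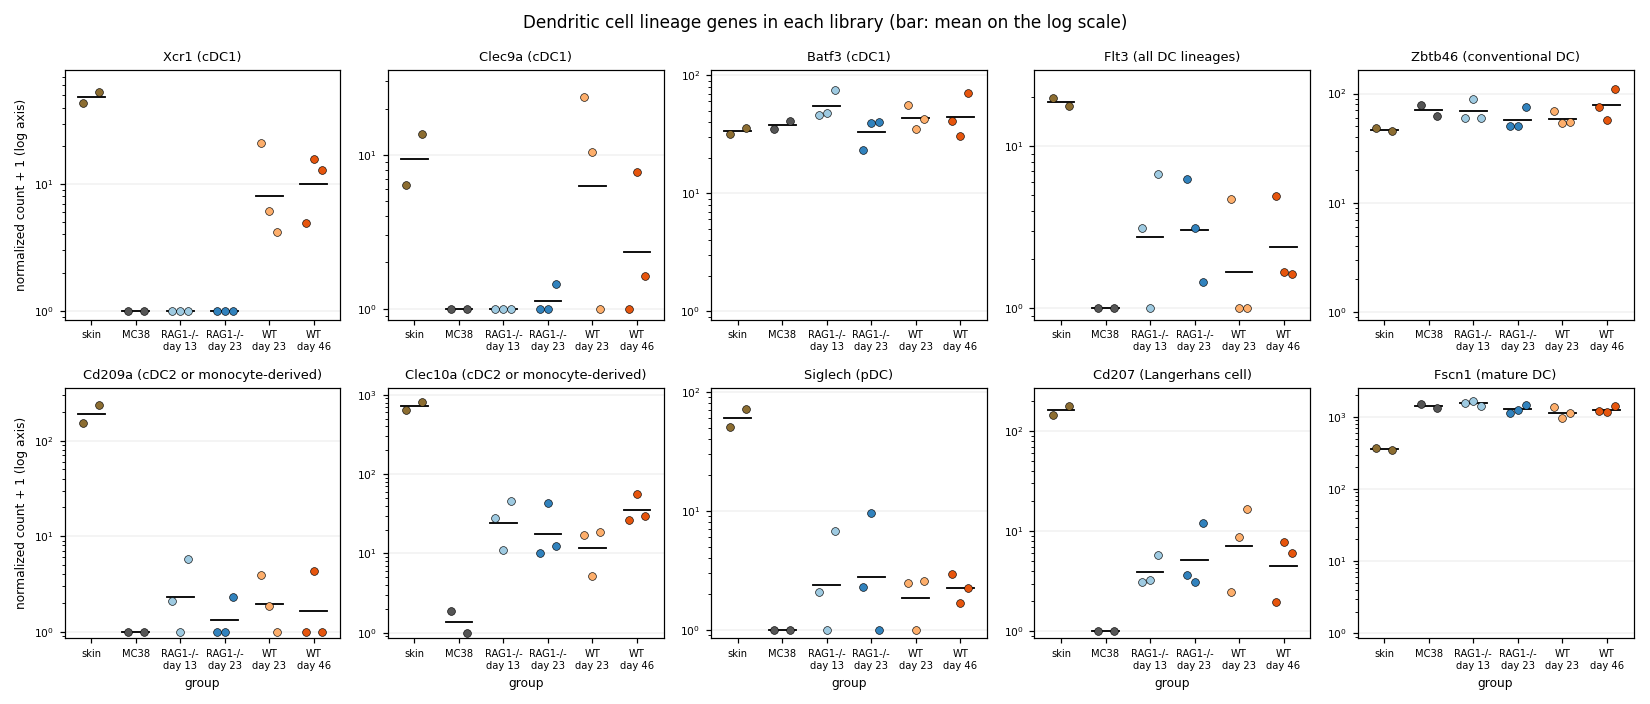
Normalized count + 1 on a log axis for each of the 10 genes in the 16 libraries, by group, with bars at the mean on the log scale and axes that differ between panels. Flt3, Cd209a, Clec10a, Siglech and Cd207 are highest in the 2 skin libraries, while Batf3, Zbtb46 and Fscn1 are read in MC38 cells at the level of the tumors.

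The broader lineage genes did not separate the tumor groups. Flt3 (chr5:147330741-147400489), the receptor of the growth factor that drives dendritic cell development, read 18.8 and 16.6 normalized counts in skin and 0 in both MC38 libraries. It read 3.69, 0 and 0 in WT day 23, 3.91, 0.671 and 0.628 in WT day 46, 2.14, 0 and 5.72 in day 13 labelled RAG1-/-, and 5.24, 2.13 and 0.442 in day 23 labelled RAG1-/-. All tumors lay below skin and the tumor groups overlapped, with 11 reads in WT tumors against 14 in those labelled RAG1-/- (ratio 0.690, 95% interval 0.283 to 1.64). The WT difference from skin was -3.22 on the log2 scale, a read ratio of skin to tumor of 11.6 (5.59 to 26.02), and it passed in the limma fit with no filter (adjusted p = 0.00427). Flt3l, which encodes the ligand, was chosen after its values were seen and fell by 2.14 from skin to WT tumors (SE 0.42, adjusted p = 0.000377).

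Zbtb46 (chr2:181387762-181459426), a transcription factor of conventional dendritic cells that endothelium also expresses, read 46.9 and 44.6 normalized counts in skin and 77.9 and 61.6 in MC38 cells. WT tumors read 68.6, 52.9 and 53.9 at day 23 and 74.3, 56.4 and 109 at day 46, and tumors labelled RAG1-/- 58.8, 89.0 and 59.1 at day 13 and 49.7, 48.9 and 74.2 at day 23. The tumor groups overlapped with each other and with the cell line. The WT difference from tumors labelled RAG1-/- was 0.11 (SE 0.23, adjusted p = 0.902) and that of all tumors from MC38 -0.10 (SE 0.30, adjusted p = 0.847). All 6 WT tumors exceeded skin, as 22.8% of tested genes did, by 0.54 (SE 0.32, adjusted p = 0.157), and among the alternatives it passed only under upper-quartile and total-count scaling (adjusted p = 0.0321 and 0.0245). The endothelial gene Cdh5 stood at 81.0 to 313 in the tumors and at 7.70 and 9.78 in MC38 cells, and its part in the Zbtb46 level was not tested.

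The lectins of cDC2 and monocyte-derived cells were far lower in tumors than in skin. Cd209a (chr8:3743397-3748984), a mouse relative of DC-SIGN, read 153 and 235 normalized counts in skin, 0 in MC38 cells, 2.95, 0.852 and 0 in WT day 23, 0, 3.36 and 0 in WT day 46, 1.07, 0 and 4.76 in day 13 labelled RAG1-/- and 0, 0 and 1.33 in day 23 labelled RAG1-/-. No tumor held more than 5 reads of it. The read ratio of skin to WT tumor was 141 (95% interval 75.8 to 298), and Cd209a fell by 6.74 on the log2 scale. It came over the filter only through skin, where it is high, and in the limma fit with no filter its adjusted p was 3.40e-06. Between the hosts the 10 and 9 reads gave a ratio of 0.976 (0.356 to 2.71).

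Clec10a (chr11:70156197-70170834), a galactose-type lectin, kept a measurable level in the tumors. It read 650 and 804 normalized counts in skin and 0.856 and 0 in MC38 cells. WT tumors read 16.2, 4.26 and 17.4 at day 23 and 25.4, 55.7 and 28.9 at day 46, and tumors labelled RAG1-/- read 26.7, 10.01 and 44.8 at day 13 and 9.16, 42.6 and 11.5 at day 23. All 12 tumors lay above both MC38 libraries, as did 14.7% of tested genes, and below both skin libraries. The read ratio of skin to WT tumor was 27.4 (95% interval 23.5 to 32.1). Clec10a fell by 5.14 from skin to WT tumors (SE 0.67, adjusted p = 7.28e-06) and rose by 3.92 from MC38 to tumors (SE 0.62, adjusted p = 0.000174, and an exact permutation p of 0.022, below which 12 against 2 cannot go), and both passed in 27 of 27 alternatives. WT and RAG1-/- labelled tumors overlapped, with a difference of -0.01 (SE 0.48, adjusted p = 0.997).

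Between WT days Clec10a stood at 36.7 normalized counts on average at day 46 against 12.6 at day 23, with 3 of 3 day 46 tumors above the 3 of day 23. Clec9a stood at 2.45 against 10.7, with days that overlapped. The log2 difference of Clec10a, 1.58 (SE 0.68), had an unadjusted limma p of 0.0352 and an adjusted p of 0.548, the exact p of 0.1 is as low as 3 against 3 can give, and 7.02% of tested genes were separated this way. No member passed between WT days or between days of the tumors labelled RAG1-/-, in limma, edgeR or DESeq2, and Clec10a was the 1 member under an unadjusted p of 0.05 in limma. Across all 14746 genes limma called 0% in either contrast, with 8.55% and 11.7% under an unadjusted p of 0.05. Whether the time course of Clec10a differed between the hosts was not tested.

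Of 8 further cDC2 and monocyte-derived genes, 0 of 6 tested passed between WT tumors and those labelled RAG1-/-. Klf4, a transcription factor of cDC2 subsets and of epithelia, differed by 0.59 (SE 0.14, adjusted p = 0.0796), Itgax, the integrin CD11c, by 0.61 (SE 0.17, adjusted p = 0.144) and Sirpa by 0.26 (SE 0.23, adjusted p = 0.720). MC38 cells alone held Klf4 at 2083 and 1953 normalized counts, against 1594 to 3028 in WT tumors and 1089 to 1567 in those labelled RAG1-/-. The part of cancer cells in the Klf4 level was not tested. Against skin 2 of 7 tested rose in WT tumors and 3 fell, beside 58.2% of all genes (23.7% higher, 34.5% lower). Itgax rose by 2.86 (SE 0.25, adjusted p = 8.97e-08), opposite to the lectins, and was at 0 in MC38 cells. Macrophages also carry CD11c, and macrophage genes summed to 22503 to 34124 normalized counts in WT tumors and 16891 to 18570 in skin.

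The pDC and Langerhans genes were highest in skin. Siglech (chr7:55768178-55778925), a surface lectin of pDC, read 49.6 and 70.1 normalized counts in skin and 0 in MC38 cells. WT tumors read 1.48, 0 and 1.58 at day 23 and 1.95, 0.671 and 1.26 at day 46, and tumors labelled RAG1-/- 1.07, 0 and 5.72 at day 13 and 1.31, 8.51 and 0 at day 23. All tumors lay far below skin, with a read ratio of skin to WT tumor of 54.6 (95% interval 26.6 to 130), and Siglech fell by 4.88 on the log2 scale. It too came over the filter only through skin, and with no filter its limma adjusted p was 0.000153. Between hosts 8 reads stood against 12 (ratio 0.586, 0.208 to 1.56).

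Cd207 (chr6:83671215-83677857), which encodes langerin of Langerhans cells and of some dermal cDC1, read 145 and 177 normalized counts in skin and 0 in MC38 cells. WT tumors read 1.48, 7.67 and 15.8 at day 23 and 0.977, 6.71 and 5.02 at day 46, and tumors labelled RAG1-/- 2.14, 2.22 and 4.76 at day 13 and 2.62, 2.13 and 11.05 at day 23. Every tumor held at least 1 read, and all 12 lay below both skin libraries. The read ratio of skin to WT tumor was 29.3 (20.9 to 42.0), and Cd207 fell by 4.83 on the log2 scale. It came over the filter only through skin, and with no filter its limma adjusted p was 0.000137. Tumors lay 2.33 above MC38 cells (SE 0.68, adjusted p = 0.0186, exact permutation p = 0.022), with an adjusted p of 0.0524 in the fit with no filter. The host difference was 0.34 (SE 0.62, adjusted p = 0.885).

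The 12 further pDC genes did not separate the hosts, with 0 of 8 tested past the threshold. Tcf4, the factor that maintains pDC and that other cells express too, differed by 0.32 (adjusted p = 0.441) and fell from skin to WT tumors by 1.05 (SE 0.20, adjusted p = 0.000308), while Runx2, a pDC and bone factor, rose by 1.35 (SE 0.21, adjusted p = 3.95e-05). MC38 cells alone held Runx2 at 310 and 351 normalized counts, against 194 and 163 in skin. Of the 9 tested against skin 2 rose and 3 fell, beside the same 58.2% of all genes.

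Fscn1 (chr5:142960343-142973185), the actin-bundling protein fascin of mature dendritic cells and of many cancer cells, went the other way from the skin genes. It read 370 and 340 normalized counts in skin and 1502 and 1320 in MC38 cells. WT tumors read 1353, 968 and 1139 at day 23 and 1191, 1176 and 1429 at day 46, and tumors labelled RAG1-/- 1567, 1652 and 1410 at day 13 and 1131, 1253 and 1441 at day 23. All tumors lay around the values of the cell line and above skin. Fscn1 rose by 1.76 on the log2 scale from skin to WT tumors (SE 0.14, adjusted p = 4.92e-08, 27 of 27 alternatives), and tumors differed from MC38 by -0.12 (SE 0.14, adjusted p = 0.581). WT tumors were lower than those labelled RAG1-/- by a margin that did not pass, -0.22 (SE 0.11, adjusted p = 0.483).

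Among 14 further maturation and migration genes, 12 were tested and 1 passed between hosts, beside 0.712% of all genes tested. Il15, a cytokine that sustains CD8 T and natural killer cells, read 108, 116 and 125 normalized counts in WT day 23 and 94.8, 71.2 and 80.4 in WT day 46. Tumors labelled RAG1-/- read 54.6, 48.9 and 52.4 at day 13 and 44.5, 59.6 and 49.9 at day 23. All 6 WT tumors exceeded all 6 labelled RAG1-/-, as did 0.651% of tested genes, and Il15 rose by 0.91 (SE 0.18, limma adjusted p = 0.0311), with an adjusted p of 0.0540 in the fit with no filter. The abundant members of the list, Il4i1, Cacnb3 and Traf1, differed by -0.32, 0.16 and 0.12 (adjusted p = 0.397, 0.798 and 0.844). MC38 cells alone held Il4i1 at 1426 and 1560 normalized counts, Cacnb3 at 457 and 508 and Traf1 at 218 and 180. They held Il15 at 41.1 and 22.5. The parts of these genes from cancer and from dendritic cells cannot be told apart in the tumors.

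**Figure D3:**
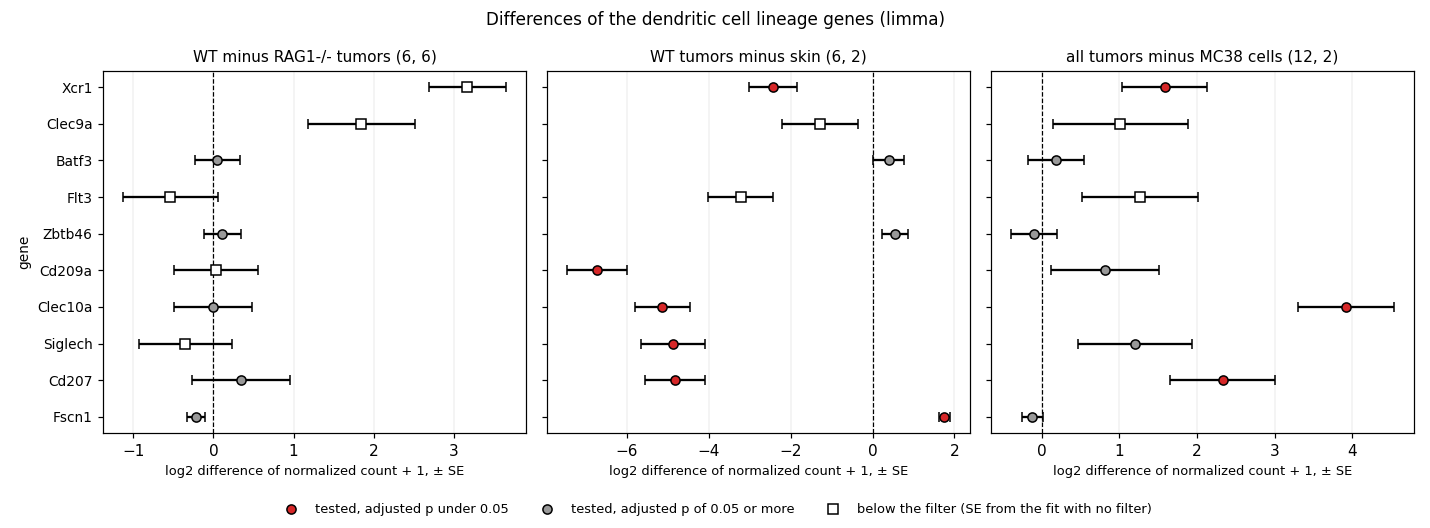
Log2 difference (normalized count + 1) with its standard error for each of the 10 genes in 3 contrasts, with the number of libraries on each side in the panel titles. Filled red points passed (limma adjusted p under 0.05), grey points were tested and did not, and open squares fell below the filter. 5 red points lie left of 0 against skin and Fscn1 lies right.

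By count, 0 of the 5 members above the filter passed between WT tumors and those labelled RAG1-/- over both days, and 0 at day 23, where 0.278% of all genes did. The count was also 0 by edgeR and by DESeq2 with the filter, and 0 of the 5 had an unadjusted limma p under 0.05, as 11.4% of all genes had. Against skin 6 of 8 passed, 1 higher and 5 lower, beside 58.2% of all 16158 genes (23.7% higher, 34.5% lower). Of the 8, 4 (Xcr1, Cd209a, Siglech and Cd207) came over the filter through skin alone, their mean over the other 14 libraries being 4.20, 1.02, 1.68 and 4.47, so this count is a description. Upper-quartile and total-count scaling moved the median of all genes against skin from -0.17 to 0.12 and 0.22, and the calls over all genes from 3833 higher and 5571 lower to 5214 and 4482, and 5627 and 4163. The members called kept their direction in every scaling run. Against MC38 cells 3 of 8 passed, all higher (Xcr1, Clec10a and Cd207), beside 24.5% of all genes (16.5% higher). The same filter limits this count: with only tumors and MC38 cells in the fit, Xcr1 and Cd207 were not tested, and with no filter their adjusted p was 0.103 and 0.0524.

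The difference of Xcr1 from MC38 cells, 1.59 (SE 0.55, adjusted p = 0.0448), came from the WT tumors, since the 6 labelled RAG1-/- were at 0 like the cells. It passed in 10 of 25 alternatives, and its exact permutation p was 0.615. Leaving out either MC38 library took Xcr1 to an adjusted p of 0.219 or 0.237 and Cd207 to 0.139 or 0.151. The Y-linked gene Ddx3y stood at 1803 and 1919 normalized counts in skin and at 1.07 or less in tumors, whose hosts the methods give as female. The sex of the mice and the tissue therefore cannot be told apart in the skin contrast.

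The ligands that recruit or feed these cells did not pass between hosts (0 of 5 tested of 7). Csf1 differed by -0.17, Il34 by 0.37 and Tgfb1 by 0.20 (adjusted p = 0.740, 0.148 and 0.798). Against skin, Csf1 and Il34, both ligands of the macrophage growth factor receptor, rose by 1.80 (SE 0.21, adjusted p = 2.23e-06) and 1.74 (SE 0.14, adjusted p = 2.67e-08). MC38 cells alone also stood above skin, with Csf1 at 1223 and 1092 normalized counts against 326 and 370. Il34 was at 619 and 674 in MC38 cells against 284 and 348 in skin. Xcl1, the XCR1 ligand, named after its values were seen, read 32.5, 46.0 and 17.4 normalized counts in WT day 23, 2.93, 17.5 and 34.5 in WT day 46, 23.5, 6.67 and 20.01 in day 13 labelled RAG1-/- and 3.93, 2.13 and 42.0 in day 23 labelled RAG1-/-. These groups overlapped, with a difference of 0.81 (SE 0.66, adjusted p = 0.693), so the ligand was read in all 12 tumors and its receptor in the 6 WT tumors.

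At their promoters the 9 members with a RefSeq entry held 1 to 34 CG dinucleotides in 300 bases. Batf3 (34) and Fscn1 (21), both read in MC38 cells, had the most, followed by Flt3 (18), while Clec9a and Cd209a had 1. The Batf3 window is at a start 567 bases inside the outermost one of GENCODE M21, and that of Zbtb46 35038 bases inside, so the Zbtb46 window (1 CG) is at an internal start and not at the gene's 5′ end. The letters TGANTCA, the binding motif of AP-1 factors to which Batf3 belongs, were found on either strand in the Cd207 window and in the internal Zbtb46 window and in 7.81% of all promoters of this length. A match is a description of these windows only.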

How the data were processed

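RNA of 16 of the series' 22 samples was used. The authors made 3′ end (QuantSeq) libraries, ran them on the Ion Proton, trimmed with cutadapt and Trimmomatic (minimum 22 bases), aligned to mm10 with STAR and Bowtie2, counted with HTSeq and divided by DESeq2 size factors. Tool versions are not given in the sources used here. This normalized count, per gene, is the signal that was deposited. Primary alignments of multi-mapping reads can fall on the wrong copy, and 3′ tags miss transcripts that end elsewhere. Whole reads were recovered for 100% of values (tolerance 1e-06) and used in edgeR 4.0.16 and DESeq2 1.42.0 as alternatives.

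limma 3.58.1 (R 4.3.3) was fitted with a trend to log2(normalized count + 1) of genes with a mean of at least 5, in the 12 tumors (tumor contrasts) or all 16 libraries, with Benjamini-Hochberg adjustment over all genes tested and a threshold of 0.05. Differences on this scale understate changes of low genes. Two-sided exact permutation tests (60, unadjusted) were run per gene, and read ratios carry exact 95% intervals. The fit was tested on data simulated with a fixed spread. Between hosts it recovered 45.9% of log2 changes of 1 and 95.1% of changes of 2. Against skin it recovered 13% and 80%. A gene that did not pass is therefore not shown to be unchanged. The members and lists were chosen with earlier results of these data known. Named besides the members were list genes past the threshold between hosts, up to 3 abundant genes per list and fixed markers. Gene positions come from GENCODE M21. Alternatives were other pseudocounts, filters, scalings, tools, groups in the fit, a replicate block and each library left out. Same-numbered tumors of different groups correlated at -0.216 to 0.194 and others at -0.19 to 0.188, so the numbers were not used as pairs. Another table's 6 columns match no label and were not used. The likeness of other genes to Cd209a is not reported here.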

Additional observations from a re-analysis of the deposited data

Results flagged for a closer look

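Each member was examined for a tumor far from the other 5 of its host genotype, in 19 sets of 6 tumors. The usual chance rate of about 1 in 20 assumes normally distributed values, which counts of 0 and a few reads are not. 3 values stood apart by Dixon's ratio (above 0.625), all in tumors labelled RAG1-/-, and those of Clec9a and Cd207 were in the same tumor. Clec9a was at 0.442 normalized counts, a single read, in replicate 3 of day 23, the most deeply sequenced library, with the other 5 at 0. Cd209a was at 4.76 in replicate 3 of day 13, and the nearest other tumor was at 1.33. Cd207 was at 11.05 in replicate 3 of day 23, and the nearest was at 4.76.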

How the results depend on the processing

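The counts of members past the threshold kept within 1.5 times of their value except in 2 contrasts. Between WT tumors and those labelled RAG1-/- over both days, 0 became 1 in limma with no filter, 2 in edgeR with no filter and 1 in DESeq2 with no filter, which let Xcr1 and Clec9a, both below the filter, into the test, and leaving out a library gave 0 to 1. Against MC38 cells, 3 became 1 with only the groups of the contrast in the fit, where Xcr1 and Cd207 fell under the filter and were not tested. It also became 1 with a pseudocount of 5 and with no filter, and 1 to 3 with a library left out, and the cause of these was not tested. Against skin the count was 5 to 6 with a library left out, and 0 in each of the other 3 contrasts.

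With the replicate number as a block the counts were 0 in the 4 tumor contrasts, 6 against skin and 2 against MC38 cells, where Xcr1 was lost (adjusted p = 0.0650). No difference that changed sign was called. Clec10a between hosts was 0.011 with a pseudocount of 5 and Zbtb46 at day 23 was -0.011 in DESeq2. With a library left out, the ranges that crossed 0 were -0.12 to 0.18 for Batf3, -0.013 to 0.22 for Zbtb46 and -0.29 to 0.32 for Clec10a between hosts over both days, -0.082 to 0.23 for Zbtb46 and -0.97 to 0.075 for Clec10a between hosts at day 23, -0.30 to 0.30 for Batf3 between WT days, -1.10 to 0.017 for Clec10a between days of the tumors labelled RAG1-/-, and -0.27 to 0.062 for Zbtb46 against MC38 cells. Keeping only the groups of the contrast leaves the both-days host fit as it was, since all 12 tumors are in it. A limit of 2 libraries of skin and of MC38 cells, and of single-digit reads for Flt3, Cd209a and Siglech in tumors, applies throughout.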

Other observations

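Over the 6 WT tumors, Irf8, a transcription factor required for cDC1 and the 1 gene of the cDC1 program picked out after its values were seen, followed Xcr1 in the same order (Spearman's rho 1, Pearson's r 0.948 on the log2 scale, and 0.961 in the 4 tumors left without the 2 farthest from the Xcr1 median). Irf8 stood at 709, 407 and 390 normalized counts at day 23 and 394, 570 and 482 at day 46. It was also at 248 to 481 in the 6 tumors labelled RAG1-/-, where Xcr1 had no read, a range that overlapped that of the WT tumors. The highest of these, 481, was in replicate 3 of day 23, the most deeply sequenced library. Of the program's 11 genes 9 had an r above 0, Nfil3 had -0.618, and Snx22 did not vary. Clec9a followed Xcr1 with r 0.677, which fell to 0.258 without the 2 farthest tumors. The T cell gene Cd3e followed Xcr1 with r 0.822, and with 0.894 without the 2 farthest. Adgre1, a macrophage gene, had r 0.732 (rho 0.886, and r 0.42 without the 2 farthest). Ptprc had r 0.249, and -0.167 without the 2 farthest. These points share depth and tissue piece, and 6 tumors allow no more than a description.

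Over all 12 tumors and 12069 genes with a mean of at least 20, the genes most like the mean log2 level of Xcr1 and Clec9a were Fcgr4 (Pearson's r 0.921), Atp8a1 (0.912), Gbp8 (0.905), Clec12a (0.899) and Dnase1l3 (0.895). In the 6 tumors labelled RAG1-/- Xcr1 was at 0 and Clec9a at 0.442 or less. The ranking therefore mixes the difference between hosts with any likeness within them, and these were not separated.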
